A study of Homo sapiens with 12 samples.

Results

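The Krüppel-like factors (KLF) are transcription factors with zinc fingers at the carboxyl end that bind GC-rich and CACCC-type sequence, and 10 of their genes were followed here: KLF2, KLF3, KLF4, KLF5, KLF6, KLF7, KLF9, KLF10, KLF11 and KLF13. They were chosen by name, with earlier results of these data known. The table held 18 genes named KLF with a number and 58721 genes in all, and each member was found by its symbol. RNA-seq counts were available from EW8 and TC71, cell lines of Ewing sarcoma, a bone and soft tissue tumor of the young that is usually driven by the fusion EWS-FLI1. All 4 groups came from cells transduced with lentiviruses for the Tet-On 3G transactivator, under the EF1 alpha promoter, and for c-Jun and c-Fos joined by a self-cleaving peptide under the doxycycline-inducible TRE3G promoter. The cells were selected with geneticin and puromycin, and no cloning step is described for them. Within each line, 3 libraries came from cells kept 72 h in vehicle (DMSO) and 3 from cells kept equally long in 2000 ng/ml doxycycline. The labels give the vehicle cells the genotype WT and the doxycycline cells the genotype AP1_overexpression, although the treatment protocol describes the inducible system in the cells of every group. The libraries analysed here include no doxycycline-treated cells without the transgenes, so doxycycline and the transgenes cannot be told apart as sources of a difference.

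The KLF family holds activators, repressors and factors that do either. KLF3 recruits the corepressor CtBP, whereas KLF9, KLF10, KLF11 and KLF13 can recruit the corepressor SIN3A. KLF2, KLF4, KLF5, KLF6 and KLF7 carry activation domains, and several of them are known as early response genes to serum, flow or injury. AP-1, the dimer that c-Jun and c-Fos form, binds TGANTCA-type sequence, where N is any base.

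Total counts per library ran from 42860665 to 60853649, and 21013 genes were abundant enough to be tested, all 10 KLF genes among them. Levels are given as CPM (counts relative to the library total, with TMM scaling between libraries) and as RPKM, the same value per kilobase of exon, where genes are compared with each other. The induction was visible in its targets: JUN rose 22.0-fold in EW8 and 36.5-fold in TC71, and FOS rose 29.3-fold and 135-fold. Reads from the transgenes and the endogenous genes share these counts. The Ewing sarcoma marker list summed to between 1786 and 2494 CPM in the 12 libraries. Its largest part was CD99, with group means from 558 to 1243 CPM. Not every gene of the list was expressed throughout: CCK held 4, 0 and 6 counts in the TC71 vehicle libraries. Replicate 1 of TC71 vehicle stood apart from its replicates, with a chi-square per gene of 58.9 and 56.1 against them, where the other replicate pairs of the series had 5.24 to 10.2. Nothing in the labels says that replicates were separate cultures, so p-values measure the spread between these libraries, which may be technical.

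Calls needed an adjusted p under 0.05 and a log2 fold change over 1 in size, in edgeR's quasi-likelihood test over all genes tested. In EW8, 4 of the 10 KLF genes were called higher with doxycycline, KLF4, KLF5, KLF6 and KLF10, against 11.4% of all genes tested. In TC71, 5 were called higher, KLF2, KLF5, KLF6, KLF10 and KLF11, against 12.3% of all genes. None was called lower in either line, where 3.38% and 3.67% of all genes were; edgeR put 0 members lower at an unadjusted p under 0.05, and DESeq2 and limma-voom called 0 lower in both lines. KLF5, KLF6 and KLF10 were called higher in both lines, as were 1563 of all 21013 genes tested. The 10 members were chosen with earlier results of these data known, and KLF15, outside them, was called lower in both lines. By adjusted p alone, 7 members were higher in EW8 (21.9% of all genes) and 5 in TC71 (25.1%), and for lower genes these shares were 22% and 20.4%. The median log2 fold change of the members was 0.92 in EW8 and, leaving out KLF4, which was near 0 in TC71, 1.14 in TC71, where the medians of all genes were -0.03 and 0.00. The plot of levels in the 12 libraries shows each of the 10 genes on its own scale.

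**Figure D1:**
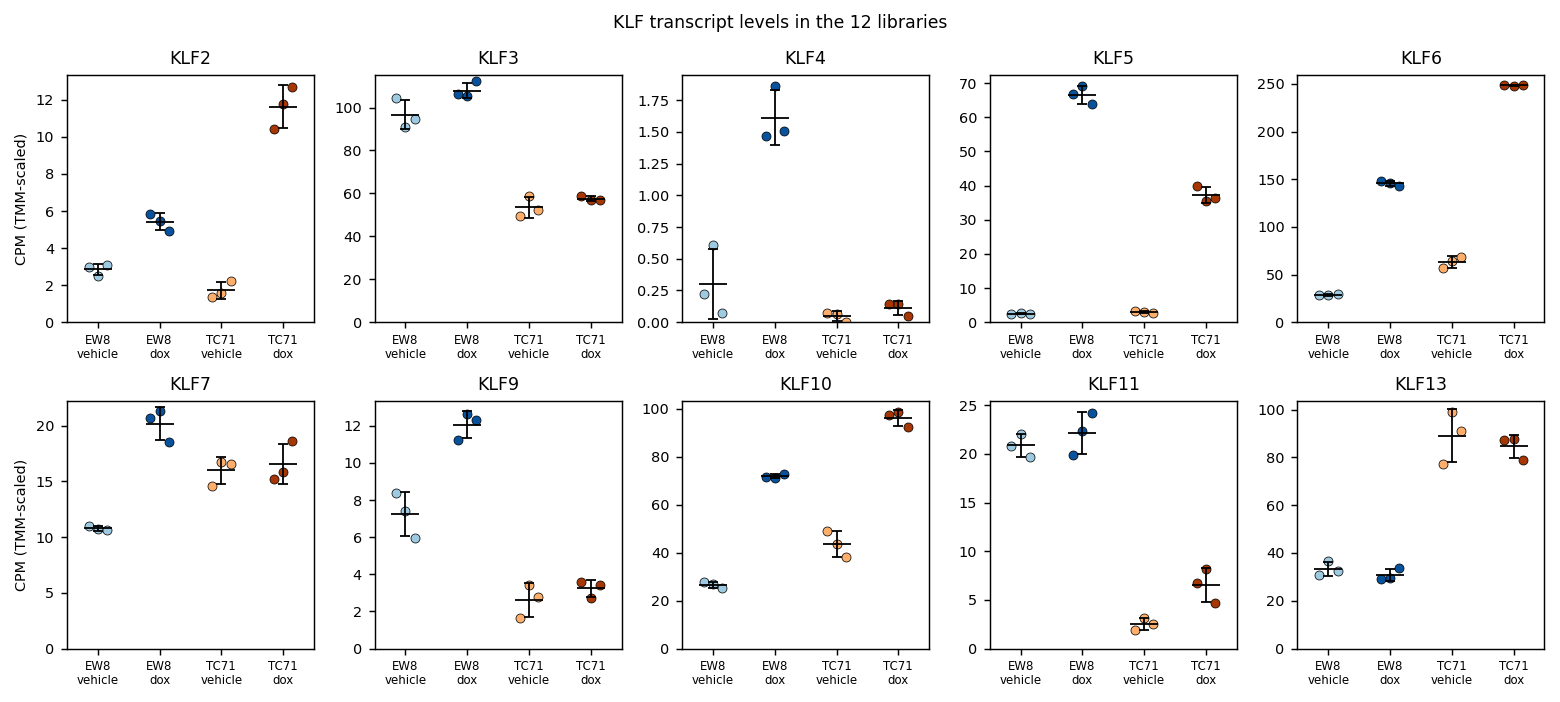
Levels of the 10 KLF genes in CPM (linear axes from 0), 1 point per library, with the mean (long bar) and SD (error bar) of the 3 libraries of each group; dox is doxycycline at 2000 ng/ml for 72 h. KLF5, KLF6 and KLF10 rise in both lines, KLF2 rises to 11.6 CPM in TC71, and KLF3 and KLF13 stay close to their vehicle levels.

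Promoter sequence is shown for members that differ in response: KLF5 and KLF6 (called in both lines), KLF2 and KLF11 (a larger response in TC71) and KLF13 (no call). RefSeq windows of 300 bases on GRCh38.p14, from 250 bases before to 50 after an annotated start, were found for 8 members in 13 windows: KLF2, KLF4, KLF5, KLF6, KLF7, KLF9, KLF11 and KLF13. The 5 stretches below, 5′ to 3′ on the strand of the gene, are the parts of such windows that lie outside the exons counted for the gene. They are chr13:73054726-73054975 (plus strand) for KLF5, chr10:3785282-3785459 (minus) for KLF6, chr19:16324576-16324816 (plus) for KLF2, chr2:10043971-10044174 (plus) for KLF11 and chr15:31326585-31326854 (plus) for KLF13. The KLF11 stretch lies within the gene, between counted exons, and the others end at the base before the first counted exon. KLF5 and KLF11 each have another window, chr13:73058755-73059054 and chr2:10043579-10043878. These lie mostly in counted exons and are not printed. Capitals mark, on either strand, the searched motifs TGANTCA (AP-1), TGACGTCA (CRE), GGAAGGAA (a pair of ETS cores), CACCC (KLF core) and GGGCGG (GC box).
KLF5: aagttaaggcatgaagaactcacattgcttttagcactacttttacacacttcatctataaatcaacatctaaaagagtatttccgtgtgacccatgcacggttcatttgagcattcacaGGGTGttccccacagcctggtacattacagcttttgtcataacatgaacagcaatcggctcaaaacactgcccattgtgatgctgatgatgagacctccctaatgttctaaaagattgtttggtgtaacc
KLF6: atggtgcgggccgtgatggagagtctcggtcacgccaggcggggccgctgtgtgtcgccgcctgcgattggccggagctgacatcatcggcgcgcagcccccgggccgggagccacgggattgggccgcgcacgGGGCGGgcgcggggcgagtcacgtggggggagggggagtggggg
KLF2: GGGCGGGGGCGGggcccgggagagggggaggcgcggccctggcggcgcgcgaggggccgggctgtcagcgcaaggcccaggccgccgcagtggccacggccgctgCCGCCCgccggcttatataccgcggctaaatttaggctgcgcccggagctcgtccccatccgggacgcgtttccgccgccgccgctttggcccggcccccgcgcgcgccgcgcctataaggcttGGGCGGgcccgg
KLF11: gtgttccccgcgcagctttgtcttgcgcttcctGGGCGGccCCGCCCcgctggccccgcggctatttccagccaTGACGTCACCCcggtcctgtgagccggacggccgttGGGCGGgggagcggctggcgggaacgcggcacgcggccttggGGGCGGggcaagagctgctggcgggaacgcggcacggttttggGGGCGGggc
KLF13: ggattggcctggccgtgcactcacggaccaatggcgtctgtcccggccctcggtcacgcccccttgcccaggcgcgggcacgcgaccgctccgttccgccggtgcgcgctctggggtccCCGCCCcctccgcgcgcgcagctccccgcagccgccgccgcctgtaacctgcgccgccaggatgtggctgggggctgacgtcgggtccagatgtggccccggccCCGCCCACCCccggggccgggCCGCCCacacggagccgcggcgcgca

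The AP-1 letters were in 0 of the 13 member windows, and in 6.86% of the 25712 windows found for 19022 genes of the table. The ETS letters were in 0 as well (3.6% of all windows). The CRE letters were in 1 window, the KLF11 stretch printed above, where their last bases overlap a CACCC (2.21% of all windows hold a CRE). GC boxes were in 8 of the 13 windows and in 7 of the 8 genes (53.2% of all windows, 59.2% of all genes with a window), 4 of them in the KLF2 stretch, 5 in that of KLF11 and 3 in that of KLF13. CACCC was in 7 windows and in 4 of the 8 genes (62.4% of all windows, 67% of genes), once in the KLF5 stretch as its reverse complement GGGTG. The 2 KLF5 windows were unlike. The one printed in part had 0 GC boxes, 1 CACCC and 40.7% G+C, and the other had 2 GC boxes, 2 CACCC and 71.3% G+C. In KLF13 the CACCC overlaps a GC box. The G+C content of the windows ran from 32.7% for KLF9 to 80.7% for KLF2, where the median over all windows was 61.3%. These matches describe the windows only, and say nothing of sequence farther from the starts.

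KLF5, an activator known from proliferating epithelia and vascular smooth muscle, had the largest response of the 10 genes. The gene lies at chr13:73054976-73077542 on the plus strand of hg38, with 3893 bases of counted exon. In EW8 its level was 2.32, 2.79 and 2.52 CPM with vehicle and 66.8, 69.1 and 63.9 CPM with doxycycline. TC71 held 3.44, 2.93 and 2.62 CPM with vehicle and 39.9, 35.4 and 36.4 CPM with doxycycline. The groups lay far apart in both lines, from vehicle levels that did not differ between the lines beyond the test (log2 difference 0.24, 95% interval -0.02 to 0.49, adjusted p = 0.102, under 0.05 in 4 of 20 alternative settings). In EW8 the rise was 26.2-fold (log2 4.71, SE 0.11, adjusted p = 3.57e-16). In TC71 it was 12.4-fold (log2 3.63, SE 0.11, adjusted p = 4.73e-15). The response was smaller in TC71 by 1.08 on the log2 scale (a log2 difference of -1.08, SE 0.15, adjusted p = 4.63e-05).

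KLF6, a ubiquitous activator described as a tumor suppressor and as an injury response gene, became the most abundant member per length in both lines. It lies at chr10:3775996-3785281 on the minus strand. In EW8 its level was 28.1, 28.5 and 30.1 CPM with vehicle and 148, 146 and 143 CPM with doxycycline. TC71 held 56.7, 64.2 and 68.7 CPM with vehicle and 249, 248 and 249 CPM with doxycycline. Every doxycycline library was above every vehicle library of both lines. The rise was 5.04-fold for EW8 (log2 2.33, SE 0.07, adjusted p = 3.46e-15). For TC71 the rise was 3.93-fold (log2 1.98, SE 0.07, adjusted p = 1.91e-14). TC71 started higher, by a log2 difference of 1.13 under vehicle (SE 0.07, adjusted p = 4.13e-11), and its response was smaller by 0.36 on the log2 scale (-0.36, SE 0.09, adjusted p = 0.00841). Without the vehicle library that stood apart, the difference of the responses was -0.56 (adjusted p = 2.32e-06).

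KLF4, one of the reprogramming factors and a regulator of epithelial and endothelial differentiation, was the least abundant of the 10. It lies at chr9:107484852-107490482 on the minus strand. The EW8 vehicle libraries held 10, 28 and 4 counts and the doxycycline libraries 82, 94 and 66, or 0.226, 0.610 and 0.0719 CPM against 1.47, 1.86 and 1.51 CPM. The groups did not overlap, but vehicle replicate 2 held more than the other vehicle libraries together. The log2 fold change was 2.42 (SE 0.66, adjusted p = 0.00614), and 3.45 without that library. In TC71 the vehicle libraries held 4, 4 and 0 counts and the others 6, 6 and 2, all at or under 6 counts (3 read pairs), which was taken as the floor, so no fold is given. Under vehicle, KLF4 was at least 2.77-fold lower in TC71 than in EW8, set against the floor of TC71, and the call was lost without EW8 vehicle replicate 2 (adjusted p = 0.140). The bound without that library, computed after the data were seen, was 1.36-fold. Floors cover counting error only.

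KLF2, known as a flow-induced factor of endothelium and as a quiescence factor of T cells, responded more in TC71. It lies at chr19:16324817-16327874 on the plus strand. In EW8 its level was 2.96, 2.51 and 3.09 CPM with vehicle and 5.85, 5.45 and 4.93 CPM with doxycycline. The TC71 libraries held 1.34, 1.58 and 2.25 CPM with vehicle and 10.4, 11.8 and 12.7 CPM with doxycycline. The vehicle level was lower in TC71 (log2 difference -0.73, SE 0.20, adjusted p = 0.00339) and the doxycycline level was higher in all 3 libraries. Without TC71 vehicle replicate 1, which stood apart, the vehicle difference was -0.47 (adjusted p = 0.0439). The rise was 6.76-fold in TC71 (log2 2.76, SE 0.19, adjusted p = 1.15e-09). In EW8 the log2 fold change of 0.93 (SE 0.19, adjusted p = 0.000496) passed the test but not the fold limit, which it passed without EW8 vehicle replicate 3 or without EW8 doxycycline replicate 3 (log2 1.03 in each case). The responses differed by 1.83 on the log2 scale (SE 0.27, adjusted p = 6.18e-05), and by 1.56 without the vehicle library of TC71 that stood apart (adjusted p = 3.98e-05).

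Markers of endothelium were also higher with doxycycline. The summed level of PECAM1, VWF, CDH5 and TEK went from between 7.37 and 8.57 CPM to between 44.4 and 50.5 CPM in EW8, where PECAM1, VWF and TEK were called higher and CDH5 was not (log2 -0.53, adjusted p = 0.579), and from at most 0.0388 CPM to between 3.8 and 4.65 CPM in TC71. In TC71, where TEK was at the floor in both groups, PECAM1 was at 0 counts in each vehicle library and at least 33.5-fold higher with doxycycline. Their part in the KLF results was not tested. In bulk samples a change in the share of cells that express a gene and a change in RNA per cell cannot be told apart. The leukocyte list (PTPRC, CD3E, CD14) summed to 59.8 to 77.9 CPM in EW8 and to at most 0.430 CPM in TC71. The sum in EW8 was nearly all PTPRC (means of 65.85 CPM with vehicle and 74.91 CPM with doxycycline), where CD14 reached at most 0.573 CPM. CD3E was at the floor in every library, and no leukocyte marker passed the call with doxycycline. The epithelial list (EPCAM, CDH1, KRT18, KRT19) went from 4.13 to 5.73 CPM up to 20.9 to 21.4 CPM in EW8 and from 174 to 212 CPM up to 223 to 237 CPM in TC71. KRT18 was called higher in EW8 and EPCAM in TC71, and CDH1 and KRT19 were too low to be tested. In TC71 nearly all of the sum was KRT18 (means of 193.7 and 218.1 CPM), which was not called there (log2 0.17, adjusted p = 0.0954). EPCAM went from a mean of 0.707 to 11.9 CPM in TC71. The part of these markers in the result on KLF5 was not tested.

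KLF7, an activator known from neurons, rose in EW8 below the fold limit. It lies at chr2:207074137-207167267 on the minus strand. In EW8 its level was 11.01, 10.7 and 10.6 CPM with vehicle and 20.7, 21.3 and 18.5 CPM with doxycycline, groups that did not overlap. In TC71 it was 14.6, 16.8 and 16.6 CPM with vehicle and 15.2, 15.8 and 18.6 CPM with doxycycline, groups that overlapped. The log2 fold change was 0.91 in EW8 (SE 0.11, adjusted p = 1.75e-06) and 0.05 in TC71 (95% interval -0.17 to 0.28, adjusted p = 0.748). Without EW8 doxycycline replicate 3 the value in EW8 was 1.01 and passed the limit. The responses differed by -0.86 (SE 0.15, adjusted p = 0.000514).

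KLF10 and KLF11, the TGF-beta-inducible early genes and both repressors of cell growth, parted in EW8. KLF10 lies at chr8:102648779-102655902 on the minus strand and KLF11 at chr2:10042849-10054836 on the plus strand. KLF10 measured 27.6, 26.8 and 25.4 CPM with vehicle and 71.7, 71.2 and 72.7 CPM with doxycycline in EW8. In TC71 it measured 49.2, 43.5 and 38.2 CPM with vehicle and 97.5, 98.7 and 92.3 CPM with doxycycline. It rose 2.71-fold in EW8 (log2 1.44, SE 0.08, adjusted p = 4.67e-11) and 2.20-fold in TC71 (log2 1.14, SE 0.08, adjusted p = 7.79e-10). The difference of these responses, -0.30 (95% interval -0.53 to -0.06), did not pass the test (adjusted p = 0.0701), but did under 10 of the 19 alternative settings tried, among them DESeq2 (adjusted p = 0.0170) and the fit without the TC71 vehicle library that stood apart (-0.33, adjusted p = 0.0108).

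KLF11 measured 20.9, 22.1 and 19.7 CPM with vehicle and 19.9, 22.4 and 24.2 CPM with doxycycline in EW8. In TC71 it measured 1.95, 3.14 and 2.56 CPM with vehicle and 6.74, 8.22 and 4.71 CPM with doxycycline. The groups overlapped in EW8 and not in TC71, where every library of both groups stayed below the EW8 libraries. The rise in TC71 was 2.56-fold (log2 1.35, SE 0.19, adjusted p = 1.01e-05), and the value in EW8 was 0.09 (95% interval -0.26 to 0.43, adjusted p = 0.726). The 95% interval in TC71, 0.953 to 1.754, held the fold limit. The responses differed by 1.27 (SE 0.25, adjusted p = 0.00133), and by 0.98 without the library that stood apart (adjusted p = 0.00163). The vehicle level in TC71 was 0.123 of that in EW8 (log2 difference -3.03, SE 0.19, adjusted p = 1.09e-10), the largest fitted gap between the lines among the members above the floor. Of the counted exon of KLF11, 416 bases (9.07%) are shared with a gene on the opposite strand, ENSG00000271787, which held at most 1 count in a library. Counting did not use strand, and reads on shared bases were left out.

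KLF9, a glucocorticoid- and thyroid hormone-responsive repressor, rose in EW8 below the fold limit. It lies at chr9:70384597-70414624 on the minus strand. In EW8 its level was 8.37, 7.41 and 5.96 CPM with vehicle and 11.2, 12.6 and 12.3 CPM with doxycycline. In TC71 it was 1.64, 3.43 and 2.76 CPM with vehicle and 3.59, 2.72 and 3.41 CPM with doxycycline. The groups were apart in EW8 (log2 0.74, SE 0.20, adjusted p = 0.00639) and overlapped in TC71 (0.31, 95% interval -0.16 to 0.78, adjusted p = 0.288). The difference of the responses was -0.43 (adjusted p = 0.376). Without TC71 vehicle replicate 1 the TC71 response was -0.02 and the difference was -0.80 (adjusted p = 0.0159), and without replicate 2 they were 0.56 and -0.18 (adjusted p = 0.775 for the difference). Under vehicle KLF9 was lower in TC71 by a log2 difference of -1.46 (SE 0.22, adjusted p = 9.64e-06).

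KLF3 and KLF13 were not called with doxycycline in either line. KLF3, the CtBP-dependent repressor, lies at chr4:38664196-38701042 on the plus strand. Its level was 104, 90.9 and 94.9 CPM with vehicle and 106, 105 and 112 CPM with doxycycline in EW8. The TC71 libraries held 49.3, 58.8 and 52.5 CPM and 58.8, 57.0 and 56.8 CPM. The log2 fold change was 0.16 in EW8 (95% interval 0.01 to 0.31, adjusted p = 0.0778) and 0.10 in TC71 (-0.05 to 0.25, adjusted p = 0.262), so that a change of the size of the fold limit lay outside both intervals. All doxycycline libraries of EW8 lay above the vehicle libraries, and the adjusted p in EW8 was under 0.05 in 6 of 20 alternative settings, among them limma-voom (0.0468), the fit of the 6 EW8 libraries (0.00493) and the fit without the TC71 vehicle library that stood apart (0.20, adjusted p = 0.00699). The lines differed under vehicle by -0.85 (SE 0.07, adjusted p = 5.8e-09), which passed the test but not the fold limit. The antisense gene KLF3-AS1 shares 266 bases (4.22%) of the counted exon of KLF3 and held 1 to 31 counts per library, against at least 2384 for KLF3.

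KLF13, a repressor and a regulator of the chemokine gene CCL5 in T cells, lies at chr15:31326855-31435665 on the plus strand. It measured 30.8, 36.5 and 32.4 CPM with vehicle and 28.96, 29.4 and 33.6 CPM with doxycycline in EW8. In TC71 it measured 77.4, 99.1 and 91.0 CPM and 87.3, 87.6 and 79.0 CPM. The groups overlapped in both lines, with log2 fold changes of -0.12 (95% interval -0.32 to 0.08, adjusted p = 0.340) and -0.08 (-0.27 to 0.11, adjusted p = 0.539). Without TC71 vehicle replicate 1 the value in TC71 was -0.25 and passed by adjusted p alone (0.0110). The vehicle level was 2.68-fold higher in TC71 (log2 1.42, SE 0.09, adjusted p = 2.15e-10).

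**Figure D2:**
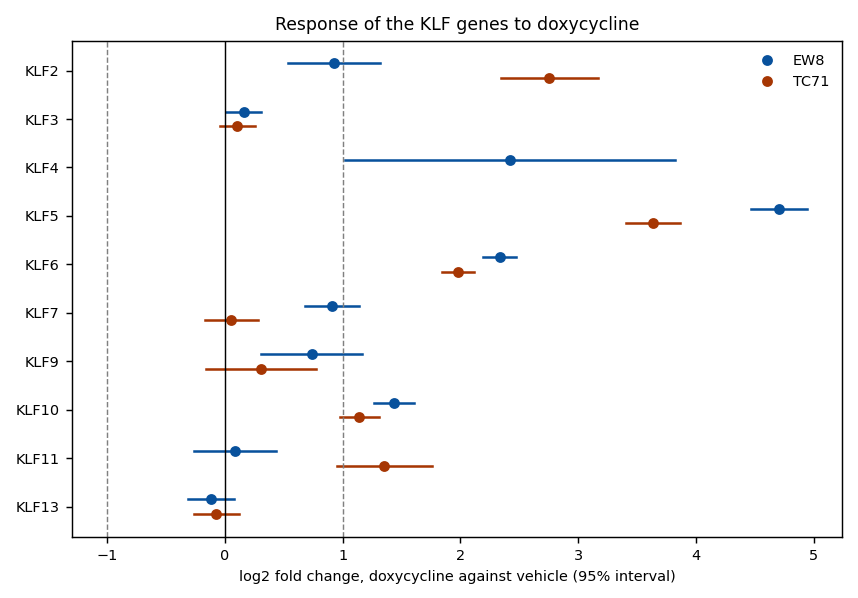
Log2 fold change of each KLF gene, doxycycline against vehicle, in EW8 (blue) and TC71 (brown), with the 95% interval from edgeR's fit on 3 libraries per group; dashed lines mark a log2 fold change of 1 in either direction. KLF5 lies farthest to the right in both lines, the intervals of KLF2, KLF5, KLF6, KLF7 and KLF11 do not meet between the lines, and KLF4 has no value in TC71, where both groups were at the floor.

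The lines were compared in their vehicle levels and in their responses. Under vehicle, KLF6 and KLF13 were called higher in TC71 (2 of 10, against 11.6% of all genes tested) and KLF4, KLF9 and KLF11 lower (3 of 10, against 18.9%). The response itself differed by adjusted p for 5 members. It was larger in TC71 for KLF2 and KLF11 (12.2% of all genes) and smaller for KLF5, KLF6 and KLF7 (7.07%). The call on KLF4 rests on low counts, as given above. The vehicle libraries enter both comparisons, so the 2 sets of values are not independent of each other.

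**Figure D3:**
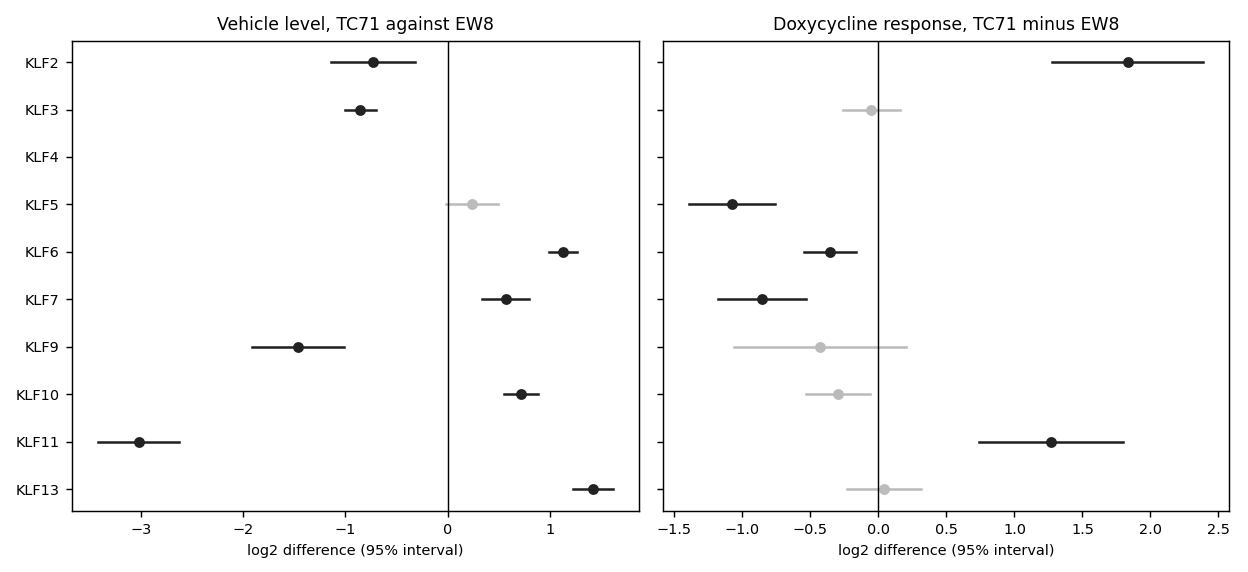
Log2 differences between the lines with 95% intervals: the vehicle level in TC71 against EW8 (left) and the doxycycline response in TC71 minus that in EW8 (right); black points passed an adjusted p under 0.05 and grey points did not. KLF11 lies farthest below 0 on the left, at -3.03, and KLF2 farthest above 0 on the right, at 1.83; KLF4, at the floor in TC71, is left out.

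Per kilobase of exon, the 10 genes together measured 38.5 to 40.8 RPKM in the EW8 vehicle libraries and 91.1 to 92.1 RPKM with doxycycline. In TC71 the sum went from between 41.5 and 45.9 RPKM to between 100.3 and 102.7 RPKM. The order within the sum changed as well. In EW8 vehicle cells KLF3 led with 15.4 RPKM ± 1.10 (SD, n = 3), 38.9% of the sum, ahead of KLF10 with 6.64 RPKM, then KLF6 and KLF11, whose ranges overlapped, then KLF13. KLF2, KLF9 and KLF7 followed, where neighbours overlapped, and then KLF5 with 0.653 RPKM and KLF4 with 0.0827 RPKM.

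With doxycycline in EW8, KLF6 led with 23.7 RPKM ± 0.421 (SD, n = 3), 25.9% of the sum. KLF10, KLF3 and KLF5 followed at 17.96, 17.1 and 17.1 RPKM, with overlapping ranges. KLF5 thereby went from 1.66% to 18.7% of the sum, and KLF3 from 38.9% to 18.7%, at a log2 change of 0.16 in its own level. In TC71 vehicle cells the 4 leading genes, KLF10, KLF6, KLF13 and KLF3, overlapped from each to the next, at 10.9, 10.3, 9.48 and 8.50 RPKM. With doxycycline KLF6 stood alone at 40.5 RPKM ± 0.0420 (SD, n = 3), 39.8% of the sum. KLF10 followed at 24.0 RPKM, and then KLF5, KLF3 and KLF13, neighbours that overlapped, at 9.56, 9.13 and 8.99 RPKM. KLF4 was last in all 4 groups. RPKM compares genes only as far as the exon length fits the transcripts made, which the counts do not show.

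**Figure D4:**
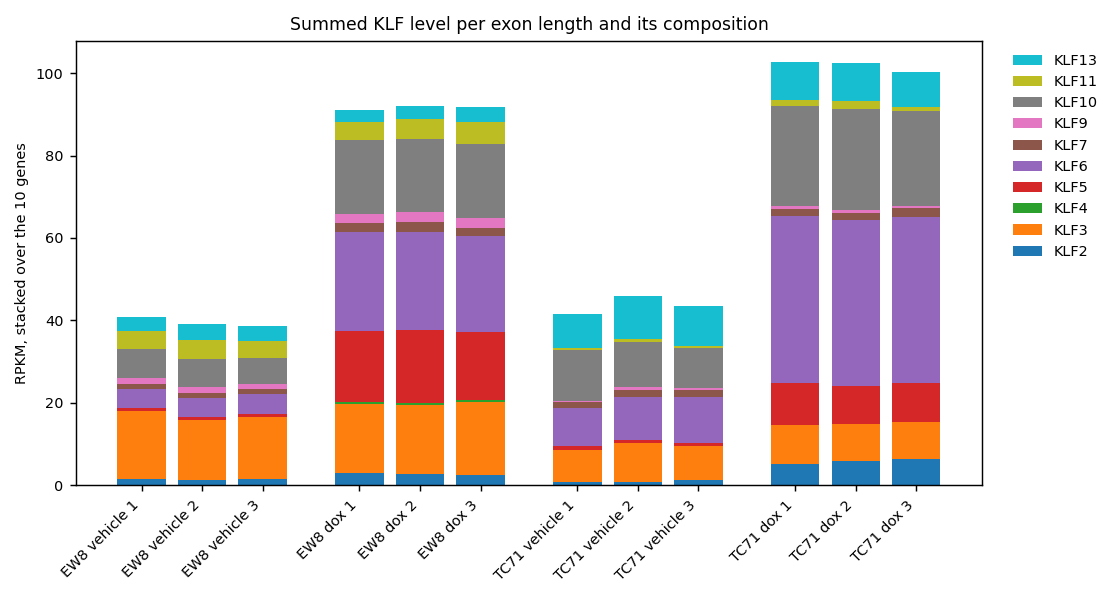
RPKM of the 10 KLF genes stacked for each of the 12 libraries (linear axis from 0; dox is doxycycline). The stack reaches at most 45.9 RPKM with vehicle and at least 91.1 RPKM with doxycycline, and the KLF6 segment is the tallest in each doxycycline library.

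Across the 12 libraries the members followed a few shapes. KLF6 and KLF10 were most alike among the members, with a Pearson r of 0.986 between their log2 CPM, followed by KLF3 and KLF9 with 0.966 and KLF11 and KLF3 with 0.941. KLF13 was least like the rest (highest r 0.339, with KLF6). Over all genes tested, the gene most like each member was HEG1 for KLF5 (r = 0.998), PRNP for KLF6 (0.997), GID4 for KLF3 (0.994), TSHZ1 for KLF13 (0.994), MB21D2 for KLF10 (0.993) and RNF144A for KLF11 (0.993). For KLF2 it was DNM1 (0.988), for KLF9 FAM149A (0.985), and for KLF4 and KLF7 it was BECN1 and KCNE4 (0.958 each). Many genes were nearly as alike, with r over 0.98 for 184 genes with KLF13, 110 with KLF5, 81 with KLF6 and 74 with KLF3. These numbers were 38 for KLF10, 34 for KLF11, 8 for KLF2, 3 for KLF9 and 0 for KLF4 and KLF7. The value for KLF4 includes the TC71 libraries, where it was at the floor. The libraries fall into 4 groups, which these points share, so the values describe the shape over groups and carry no p.

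Of the 8 other KLF genes listed, 6 were abundant enough to be tested, and KLF17 and KLF18 were not. KLF14, a maternally expressed gene in other tissues, was called higher in both lines. Its vehicle libraries in EW8 held 54, 78 and 92 counts, and those with doxycycline 248, 208 and 169 (log2 1.44, adjusted p = 0.00666). In TC71 they were 0, 2 and 4 against 62, 46 and 14, at least 8.91-fold higher. KLF15, a metabolic regulator of liver and muscle, was called lower in both, at a log2 of -2.59 (SE 0.26, adjusted p = 1.8e-07) for EW8 and of -1.12 (SE 0.25, adjusted p = 0.00133) for TC71. No SP gene, the nearest relatives of the KLF genes, was called higher among the 6 tested of 9. SP9 was called lower in EW8, at least 4.15-fold, and none in TC71. By adjusted p alone, SP1, SP3 and SP4 were lower in both lines, SP4 by -0.79 and -0.86.

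Among 12 cofactors of KLF proteins, FHL3 (log2 1.67, SE 0.08, adjusted p = 3.81e-12) and HIPK2 (2.10, SE 0.13, adjusted p = 3.34e-10) were called higher in EW8, and HIPK2 (3.71, SE 0.14, adjusted p = 2.09e-13) in TC71. FHL3 is a LIM-domain coactivator and HIPK2 a nuclear kinase. None was called lower, and the median over the list was -0.04 in EW8 and -0.12 in TC71. Of all genes tested, 11.4% were called higher in EW8 and 12.3% in TC71. The corepressor genes for CtBP and SIN3 proteins, CTBP1, CTBP2, SIN3A and SIN3B, had log2 fold changes of at most 0.43 in size. Of the 4 ubiquitin ligases known to act on KLF proteins, WWP1, FBXW7, SMURF1 and ITCH, none was called in either line. By adjusted p alone, SMURF1 was higher in both lines (0.75 and 0.91) and WWP1 in TC71 (0.34).

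Genes known to act upstream of KLF genes were tested for 14 of 15 listed, MEF2B being too low. In EW8, TGFBR2 (log2 2.52), SMAD3 (1.83) and EGR1 (1.53) were called higher and none lower, and the list median was 0.46. Of all genes tested, 11.4% were called higher in EW8 and 3.38% lower. In TC71, TGFBR2 (3.40), SMAD3 (1.59), TGFB1 (1.29) and MEF2C (1.16) were called higher, and the median was 0.36. There, 12.3% of all genes tested were called higher and 3.67% lower. TGFBR2 and SMAD3 encode a receptor and a signal transducer of TGF-beta, the pathway for which KLF10 and KLF11 are named. By adjusted p alone, TGFBR1 was higher in both lines (0.62 and 0.66) and TGFB1 in EW8 (0.49). SMAD2 (-0.15 in EW8, 0.095 in TC71) and SMAD4 (-0.03 and -0.06) passed the test in neither line. The part of this pathway in the KLF results was not tested. EGR1, an immediate early gene, was called lower in TC71 (-1.38, SE 0.20, adjusted p = 1.32e-05) and higher in EW8 (SE 0.21, adjusted p = 6.72e-06). The 3 kinases of the ERK5 pathway, MAP3K3, MAP2K5 and MAPK7, which act upstream of KLF2 and KLF4, were not called. MAP3K3 was higher by adjusted p alone in both lines (0.43 in EW8 and 0.30 in TC71), and MAP2K5 and MAPK7 passed the test in neither.

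Known targets of KLF factors were tested for 14 of 15 listed, THBD being too low. In EW8, 7 were called higher, against 11.4% of all genes tested, and 0 lower, against 3.38%. The higher genes included CCL5 (log2 3.63), CDKN1A (3.20), SMAD7 (1.72) and S1PR1, at least 7.69-fold higher. In TC71, 5 were called higher, against 12.3% of all genes tested. They included S1PR1 (log2 4.20) and LGALS3 (2.51), and, against a vehicle group at the floor, CCL5 at least 6.46-fold and PDGFA at least 3.62-fold. CEBPA alone was called lower in TC71 (-1.24, SE 0.18), against 3.67% of all genes tested. The list median, with bounded genes at their bound and leaving out 1 gene per line at the floor in both groups, was 1.19 in EW8 and 0.50 in TC71. S1PR1 is a lymphocyte and endothelial receptor regulated by KLF2. CCND1 was lower by adjusted p alone, by -0.54 and -0.36. The list does not sort targets by whether KLF factors raise or lower them, so its counts and medians do not measure KLF activity. Many factors other than KLF proteins act on these genes, and the counts do not show which acted here.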

How the data were processed

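TruSeq Stranded mRNA libraries were made from polyadenylated RNA and read from both ends. The authors aligned reads with STAR to hg38, and the deposited table holds whole-number raw counts per gene, with exon length in base pairs. Per the file headers, the authors counted with featureCounts 2.0.1 over GENCODE release 29, with no setting for pairing, strandedness, multiple mapping or gene overlap, so mates were counted separately.

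Counts were tested with edgeR 4.0.16 in R 4.3.3 (filterByExpr, TMM, quasi-likelihood F test; 12 libraries in 1 fit of 4 groups; prior degrees of freedom 9.371). The genes tested held 99.95% of counts. Benjamini-Hochberg adjustment ran over 21013 genes. SE is the log2 fold change over the root of F, and intervals are at 95%. A group with all libraries at or under 6 counts was at the floor (0.0966 to 0.145 CPM by library), and folds against it are bounds. Alternatives were DESeq2 1.42.0, limma-voom (limma 3.58.1), other scalings and filters, fits of 6 libraries, a replicate block and leaving out each library. On simulated counts, 99 of 100 genes changed by 1.5 on the log2 scale were recovered in EW8 (19954 genes) and 99 of 100 in TC71 (19975 genes), and all 100 of those changed by 3 in each. Only well-counted genes were changed, with the same dispersion for every gene and no library standing apart. The simulation therefore does not cover genes as low as KLF4, nor the TC71 vehicle library that stood apart.

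The members and the gene lists were chosen with earlier results of these data known. Named genes are the members, JUN and FOS, up to 4 called genes per list and contrast by size of the change, and the tested gene most alike each member by Pearson r of log2 CPM (prior count 2). List genes named beyond that rule (among them CEBPA, CCND1, MEF2C, SMURF1, WWP1, SP1, SP3 and SP4) were chosen after their values were seen. Symbols were matched for 99.1% of gene identifiers. Promoter windows are from RefSeq, read with Python 3.11.15. Protein sequences were not used here, and some list genes are not reported here. Knockdown experiments of the study were not analysed here.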

Additional observations from a re-analysis of the deposited data

Results flagged for a closer look

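The response to doxycycline differed between the lines for 5 of the 10 KLF genes, by a test of the difference itself (edgeR, TC71 minus EW8 on the log2 scale). Of all genes tested, 12.2% had a larger response in TC71 by adjusted p and 7.07% a smaller one. The response was larger in TC71 for KLF2, by 1.83 (adjusted p = 6.18e-05), and for KLF11, by 1.27 (adjusted p = 0.00133). It was smaller in TC71 for KLF5, by -1.08 (adjusted p = 4.63e-05), for KLF7, by -0.86 (adjusted p = 0.000514), and for KLF6, by -0.36 (adjusted p = 0.00841). For KLF2, KLF5 and KLF6 the direction was upward and past the test in each line, so the lines differed in size. KLF7 passed the test in EW8 alone and KLF11 in TC71 alone.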

How the results depend on the processing

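Of 784 values of members under the alternatives, 751 kept their direction and side of the threshold, 14 newly passed it, 1 lost it (KLF4 between lines, given above) and 18 changed sign. With no fold limit, 7 members were higher in EW8 with doxycycline (21.9% of all genes tested), and 4 were higher and 5 lower in TC71 than in EW8 under vehicle. Requiring also a log2 difference over 1, the responses differed for 3. The shares of all genes were not computed for these vehicle counts or for that difference, so these counts have no background to be read against. Sign changes concerned values near 0 that did not pass the test: leaving out libraries, the TC71 response ran from -0.033 to 0.17 for KLF3, -0.088 to 0.11 for KLF7 (-0.041 by library size alone), -0.016 to 0.56 for KLF9 and -0.25 to 0.007 for KLF13, and the difference of the responses from -0.24 to 0.017 for KLF3 and -0.17 to 0.12 for KLF13 (-0.065 with a minimum of 10 counts throughout); the cause was not tested. Leaving out each library, 4 to 6 members were called higher in EW8 and 5 in TC71, 5 to 7 differed in response, and 2 were higher and 2 to 3 lower in TC71 under vehicle; none was called lower with doxycycline. Without TC71 vehicle replicate 1, 7 members differed, KLF9 and KLF10 being added. Scaling by library size alone moved the median of all genes in TC71 by -0.095, and a minimum of 10 counts throughout moved the median difference of the responses by -0.11. Same-numbered replicates did not deviate together (r from -0.03 to 0.01), and the main fit did not pair them. These values cannot show whether same-numbered libraries were set up together. With the replicate block the counts were 4 and 0 in EW8, 5 and 0 in TC71, 5 for the difference, and 2 and 3 under vehicle. KLF4 could not be tested under that minimum, nor in fits of TC71 alone or of the 6 vehicle libraries, where 2 members, KLF9 and KLF11, were called lower in TC71. Depth limits KLF4 in TC71, where a count of 6 or less in each library allows no fold.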
